A study of Mus musculus with 24 samples.

Results

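Callosal projection neurons of the mouse cortex were followed over the step from embryonic day 16 (E16) to embryonic day 18 (E18), with gene expression at E18 set against that at E16. The genes considered were those with a value of 1 or more in at least 1 of the 2 callosal columns, 13037 of the 32310 entries of the table. The same step in subcerebral and corticothalamic projection neurons was used to tell changes that the subtypes had together from changes of the callosal neurons alone. The series profiled RNA of these 3 sorted neuron subtypes at E15, E16, E18 and postnatal day 1 (P1), with 24 libraries in all and 2 for each combination of subtype and stage. All groups came from mice of the outbred CD1 strain with no treatment or engineered allele named. Cells were purified by fluorescence-activated sorting, RNA was extracted with a kit for total nucleic acid, and libraries were made from polyadenylated RNA. The labels name neither the sort markers nor the animals behind each library.

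Callosal neurons send axons through the corpus callosum to the opposite hemisphere and populate mainly the upper layers of the cortex. Around birth these cells migrate to their layers, extend axons across the midline, and begin to mature electrically and to form synapses. Subcerebral neurons project to targets such as the spinal cord, and corticothalamic neurons to the thalamus; both lie in deep layers and are born earlier than most upper-layer neurons.

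Expression was taken to be in FPKM, fragment counts scaled to transcript length and library size, which was inferred from the submitters' use of Cufflinks and from the values, since the table names no unit. The table holds 1 value for each subtype and stage, the authors' own combination of the 2 libraries, so no value has an SD and no difference has a test. Sequencing depth is unknown. The difference between stages, called the step, is log2(FPKM + 1) at E18 minus log2(FPKM + 1) at E16, a scale that understates changes of low genes. "Rose" and "fell" are used for genes whose step was at least 1 in size, a 2-fold change on that scale. Effects of age and of any difference in collection, preparation or sequencing between E16 and E18 cannot be told apart. A lower level in a sorted population can come from fewer cells of a type or from less RNA per cell, and these cannot be told apart in bulk samples.

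Most markers matched the callosal label, Tbr1 and in part Fezf2 excepted. Cux2, an upper-layer transcription factor, stood at 59.1, 65.2, 75.8 and 104 FPKM at E15, E16, E18 and P1 and at no more than 6.80 FPKM in any group of the other subtypes. Lhx2, a transcription factor of upper layers, stood at 133 FPKM at E16 and 127 at E18. Bcl11b, the subcerebral regulator also called Ctip2, was at 1.02 and 1.00 FPKM, and Tle4, a corticothalamic co-repressor, at 3.16 and 2.31. These levels moved by less than 2-fold between E16 and E18. Fezf2, a subcerebral marker, fell from 28.1 FPKM at E16 to 9.85 at E18 in callosal neurons. It was at 187 and 152 FPKM in subcerebral and at 118 and 82.2 in corticothalamic neurons. Tbr1, a deep-layer transcription factor, was not low in the callosal groups, with 65.8 FPKM at E16 and 72.9 at E18 against 217 and 195 in corticothalamic and 47.9 and 29.2 in subcerebral neurons. The sums of the callosal columns were close, 384824 at E16 and 379367 at E18, and 12554 and 12732 genes reached 1 FPKM.

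Most genes moved little between E16 and E18. The median callosal step was -0.01, and 5% of genes lay below -0.42 and 5% above 0.68. In callosal neurons 277 genes rose, 2.12% of those considered, and 67 fell, 0.514%. Rises therefore outnumbered falls, and they made up 80.5% of the 344 changed genes (2.64% of those considered). Over their own genes at 1 FPKM or more, subcerebral neurons had 350 rises (2.69%) and 81 falls (0.624%), and corticothalamic neurons 171 rises (1.3%) and 66 falls (0.502%). Across the 13037 genes the callosal step correlated with the subcerebral step at a Pearson r of 0.62 (Spearman rho 0.65) and with the corticothalamic step at 0.55 (rho 0.64). These are descriptions over genes, which are not independent replicates, and all 3 steps share whatever differed between the stages.

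**Figure D1:**
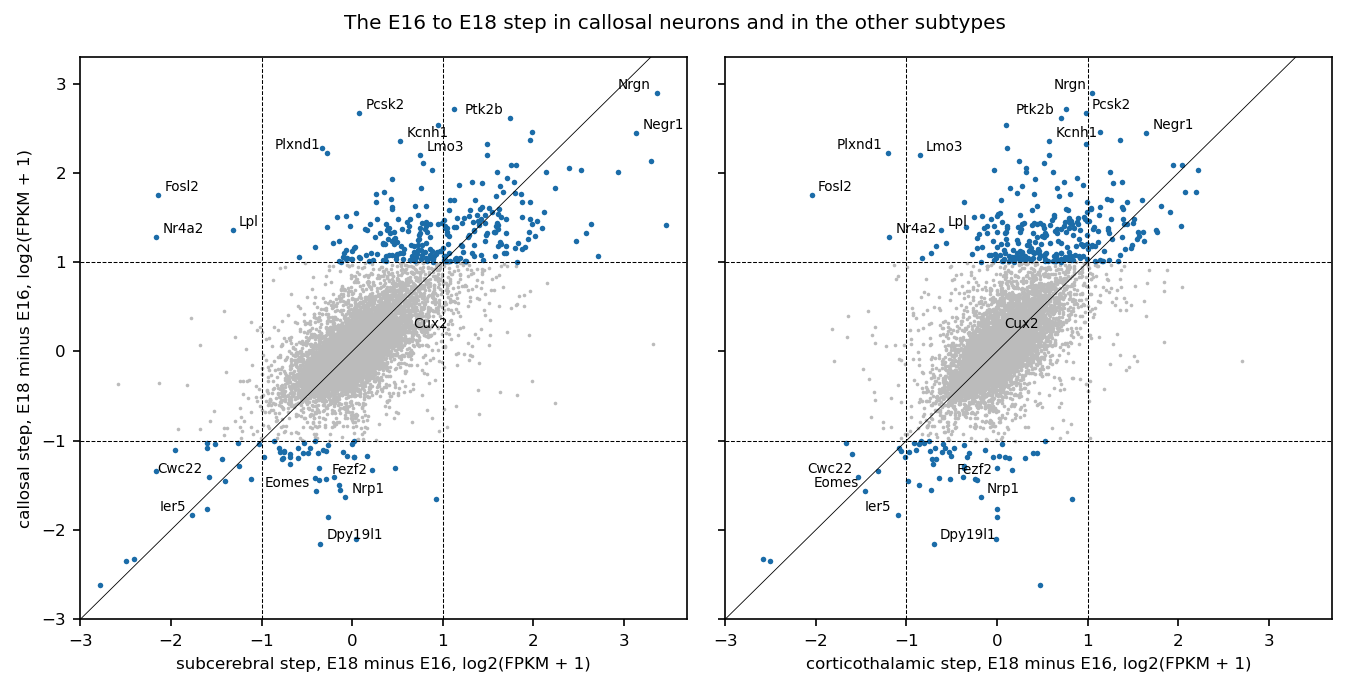
Each point is 1 of the 13006 genes with values above 0 in all 6 columns. The y axis is the callosal step and the x axes are the subcerebral (left) and corticothalamic (right) steps, E18 minus E16 in log2(FPKM + 1). Dashed lines mark a step of 1 or -1, the solid line equal steps, and blue points the genes past 2-fold in callosal neurons. Nrgn and Negr1 lie at the upper right in both panels, whereas Fosl2 and Nr4a2 lie at the upper left, higher in callosal neurons and lower in both others.

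Among the 12 largest named rises were Nrgn, Negr1 and Atp1b1. Nrgn encodes neurogranin, a calmodulin-binding protein of dendritic spines. It was at 0.47, 5.51, 47.4 and 207 FPKM in callosal neurons from E15 to P1, and the E16 to E18 step was 2.89, against 3.36 in subcerebral and 1.05 in corticothalamic neurons. Its level was lowest at E15 and highest at P1 in each subtype. Negr1, a cell adhesion molecule of neurite growth, went from 1.67 to 13.6 FPKM in callosal neurons (step 2.45). Its steps were 3.14 in subcerebral and 1.65 in corticothalamic neurons. Atp1b1, the beta subunit of the sodium pump, went from 9.79 to 54.7 FPKM, with steps of 2.37, 1.97 and 1.36 in callosal, subcerebral and corticothalamic neurons. All 3 genes rose in every subtype.

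Of the 277 callosal rises, 44 (15.9%) also rose in both other subtypes and 86 (31.0%) rose in subcerebral but not corticothalamic neurons. Another 21 (7.58%) were shared with corticothalamic neurons only, and 126 (45.5%) passed 2-fold in callosal neurons alone. For comparison, 2.18% of the same 13037 genes rose in subcerebral neurons and 1.08% in corticothalamic neurons. The step was above 0 in both other subtypes for 222 of the 277 rises (80.1%). The same share over all genes was not counted, so the 222 genes have no background to be read against. Of the 126 in callosal neurons alone, 60 (21.7% of all callosal rises) stayed below 0.5 in both other subtypes. A gene past 2-fold in 1 subtype and not in another is not shown to differ between them, and no difference between subtypes could be tested here.

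The largest shared rises included Sulf2, an extracellular sulfatase that edits heparan sulfate. It went from 1.25 to 8.21 FPKM in callosal neurons, with steps of 2.03 in callosal, 2.53 in subcerebral and 2.22 in corticothalamic neurons. Vsnl1, a neuronal calcium sensor, went from 3.04 to 16.2 FPKM with steps of 2.08, 1.81 and 1.95. These genes moved by similar amounts in all 3 subtypes. Ccl19, a chemokine gene, went from 1.70 to 10.5 FPKM, and Lor, which encodes the epidermal protein loricrin, from 0.13 to 2.36. Slc24a3, a sodium, potassium and calcium exchanger, went from 3.28 to 22.5 FPKM, with steps of 2.46, 1.99 and 1.13.

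Pcsk2, Cnih3, Kit, Npas2 and Lmo3 rose in callosal neurons and did not pass 2-fold upward in either other subtype. Pcsk2, the prohormone convertase that processes neuropeptides, went from 2.46 FPKM at E16 to 21.1 at E18 in callosal neurons (step 2.68). In subcerebral neurons it was 15.6 and 16.5 FPKM (step 0.08), and in corticothalamic neurons 20.2 and 40.8 (step 0.98). The callosal level was thus the lowest of the 3 at E16 and lay between the others at E18. Cnih3, an auxiliary subunit of AMPA receptors, went from 8.52 to 26.1 FPKM in callosal neurons (step 1.51). Its subcerebral levels were 63.4 and 56.2 FPKM and its corticothalamic levels 121 and 101. Callosal Cnih3 remained the lowest of the 3 at E18 and at P1 was 49.1 FPKM, beside 49.4 in subcerebral neurons. Kit, a receptor tyrosine kinase, was at 5.35 and 15.6 FPKM in callosal neurons against 16.1 and 13.1 in subcerebral and 35.7 and 27.9 in corticothalamic neurons, so that callosal Kit lay between the others at E18. Npas2, a circadian transcription factor, went from 0.79 to 9.44 FPKM, with steps of 2.54, 0.95 and 0.10. Lmo3, a LIM-domain co-regulator, went from 9.48 to 47.2 FPKM in callosal neurons (step 2.20). In subcerebral neurons it was at 75.5 and 128 FPKM (step 0.75), and in corticothalamic neurons at 62.3 and 34.0 (step -0.86). In each of these 5 genes the callosal E16 level was the lowest of the 3 subtypes, an order that choosing genes by a large callosal step favours.

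Kcnh1 and Hspb3 rose from low levels, and callosal neurons held the highest level of the 3 subtypes at E16, E18 and P1. Kcnh1, a voltage-gated potassium channel of the ether-a-go-go family, was at 0.0086, 0.27, 5.53 and 19.8 FPKM in callosal neurons from E15 to P1. It did not exceed 1.69 FPKM in any group of the others, and the steps were 2.36, 0.53 and 0.58. Hspb3, a small heat shock protein gene, went from 3.80 to 16.03 FPKM in callosal neurons (step 1.83) and stayed at or below 2.60 in the others. It went from 0.23 to 1.08 FPKM in subcerebral and from 0.08 to 0.70 in corticothalamic neurons, with steps of 0.76 and 0.66. Both genes were so low in the other subtypes at E16 and E18 that the steps there understate the change. The larger callosal step of Hspb3 is thus not a larger fold. Rorb, a nuclear receptor of layer 4 and upper-layer neurons, went from 1.94 to 5.57 FPKM (step 1.16). Its subcerebral step was 0.02 and its corticothalamic step -0.22, and its callosal level lay between those of the others at E18 and above both at P1. Hspb3 and Rorb belong to the list of callosal and upper-layer genes described below.

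The stages that did not enter the step gave the order of the subtypes before and after it. Of the 60 rises under 0.5 elsewhere, callosal neurons had the lowest level of the 3 subtypes at E15 in 36 and the highest in 9. At P1 they had the lowest level in 14 and the highest in 35. Over all 13037 genes callosal neurons were lowest in 38.0% and highest in 42.4% at E15, and lowest in 30.6% and highest in 32.0% at P1. Among the 44 rises shared by all subtypes, callosal neurons were lowest in 16 and highest in 17 at E15, and lowest in 12 and highest in 9 at P1. Between E15 and P1, columns that the step did not use, 253 of the 277 rises were also at least 2-fold higher at P1, and 4 were at least 2-fold lower. Over all genes considered, 10.2% were at least 2-fold higher at P1 than at E15 in callosal neurons and 6.66% lower.

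**Figure D2:**
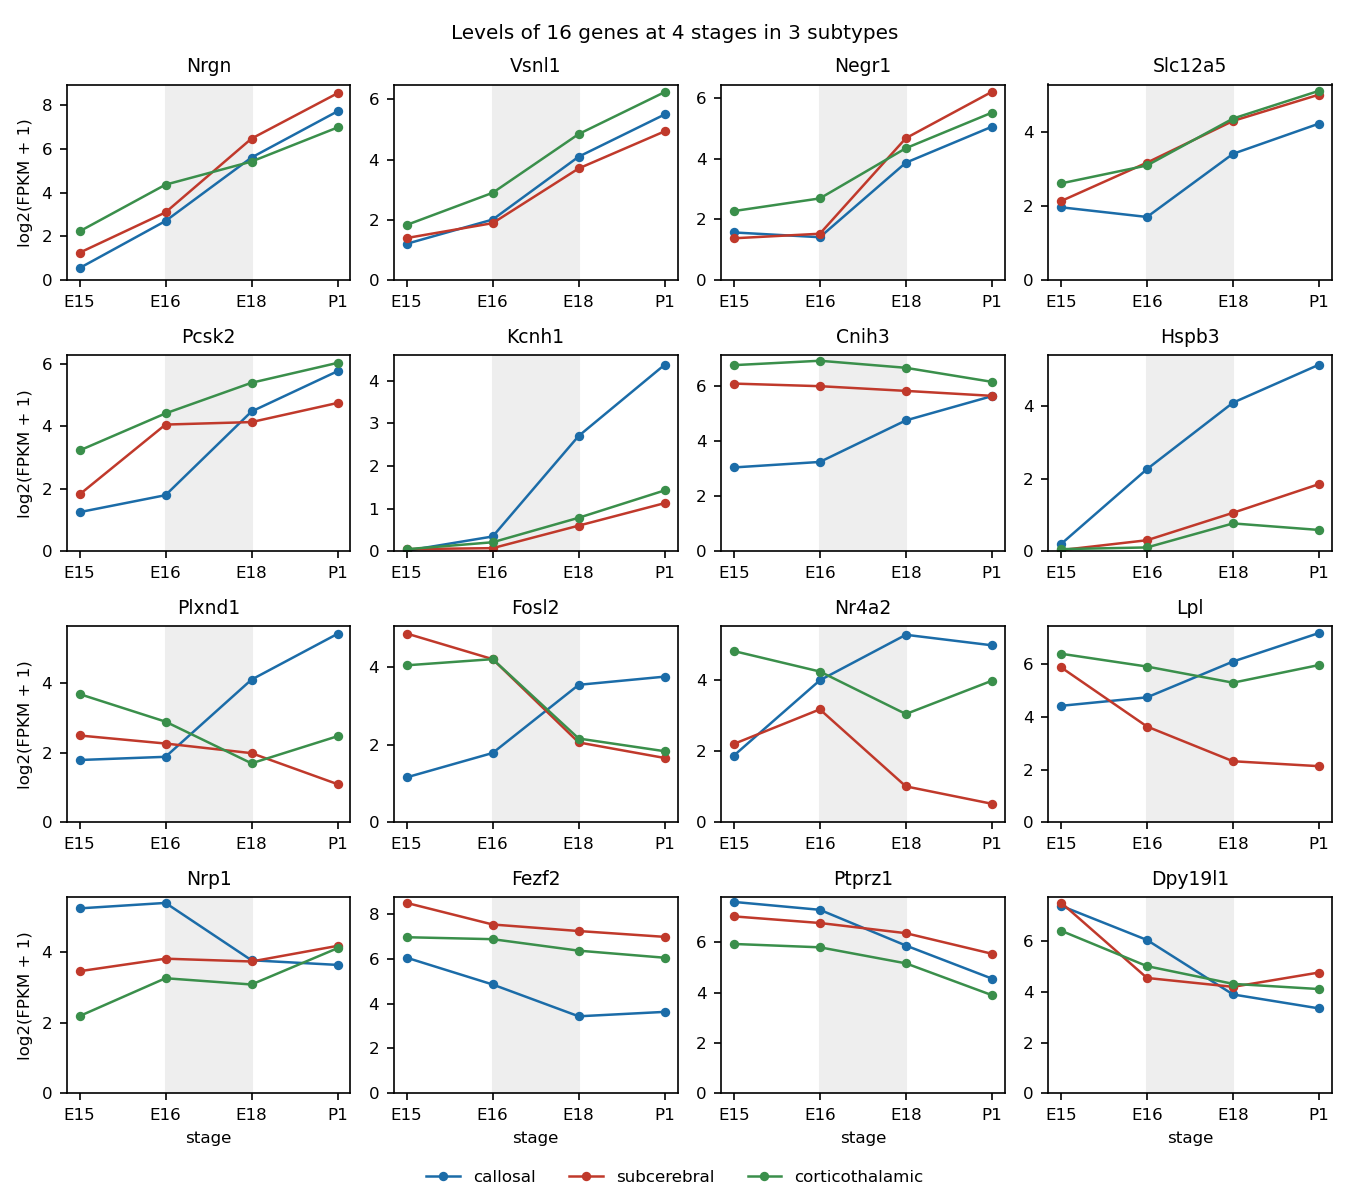
Levels of 16 genes as log2(FPKM + 1), y axis, at the 4 stages, x axis, in callosal (blue), subcerebral (red) and corticothalamic (green) neurons. Each point is 1 pooled value and the grey band is the E16 to E18 step. The top row rose in all subtypes, and the second row holds genes whose callosal step was the largest on this scale. The third row holds genes that rose in callosal neurons and were lower at E18 in at least 1 other subtype. The bottom row holds genes that fell in callosal neurons.

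Plxnd1, Fosl2, Nr4a2 and Lpl rose in callosal neurons while they fell in at least 1 other subtype. Plxnd1 encodes plexin D1, a receptor for semaphorins in axon guidance. It was at 2.45, 2.68, 16.2 and 41.7 FPKM in callosal neurons from E15 to P1. In subcerebral neurons it was at 4.63, 3.80, 2.96 and 1.13 FPKM and in corticothalamic neurons at 11.9, 6.42, 2.23 and 4.55. Callosal neurons had the lowest Plxnd1 level at E15 and the highest at E18 and P1, and the steps were 2.22, -0.28 and -1.20. Fosl2 encodes Fra-2, an AP-1 transcription factor induced by activity. It was at 1.23, 2.44, 10.6 and 12.4 FPKM in callosal neurons, against 28.0, 17.4, 3.15 and 2.14 in subcerebral neurons. In corticothalamic neurons it was at 15.5, 17.4, 3.45 and 2.55 FPKM. The order of the subtypes for Fosl2 was thus turned between E16 and E18, with steps of 1.76, -2.14 and -2.04.

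Nr4a2 encodes the orphan nuclear receptor Nurr1, an activity-regulated factor that also marks subplate and claustrum neurons. It was at 2.65, 14.8, 37.3 and 30.2 FPKM in callosal neurons from E15 to P1 and at 3.58, 7.97, 1.01 and 0.43 in subcerebral neurons. Corticothalamic neurons had 26.9, 17.7, 7.20 and 14.7 FPKM, and the steps were 1.28, -2.16 and -1.19. Lpl, lipoprotein lipase, was at 20.4, 25.8, 67.7 and 145 FPKM in callosal neurons. It was at 58.0, 11.4, 3.97 and 3.37 FPKM in subcerebral neurons and at 83.3, 59.2, 38.3 and 61.6 in corticothalamic neurons. The Lpl steps were 1.36, -1.32 and -0.61. For all 4 genes callosal neurons held the highest level of the 3 subtypes at E18 and P1. With 1 value per group, these differences in direction were not tested.

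Promoter sequence, the 250 bases before the transcription start, was looked up for these 4 genes in the RefSeq table of build GRCm38.p6, and 3 had an entry. It was searched on both strands for the cyclic AMP response element TGACGTCA, its core TGACG, which the full element contains, and the AP-1 motif TGANTCA, chosen with the expression values known. The Nr4a2 promoter, chr2:57124004-57124253 on the minus strand, is shown because it was the promoter with a match, 4 copies of the core. Capitals mark the core on either strand, and the sequence reads 5′ to 3′ along the gene.
Nr4a2: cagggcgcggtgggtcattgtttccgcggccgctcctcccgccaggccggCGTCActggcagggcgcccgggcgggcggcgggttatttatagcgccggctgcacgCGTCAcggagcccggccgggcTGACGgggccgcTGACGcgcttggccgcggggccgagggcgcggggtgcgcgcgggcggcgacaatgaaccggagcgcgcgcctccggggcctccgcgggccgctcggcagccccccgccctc
Of 32841 promoters in the table, 17.8% held at least 1 core, 1.55% the full element and 6.75% the AP-1 motif. The Plxnd1 and Fosl2 windows held none of the 3 motifs. A match is a description of the letters and not a binding site.

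In callosal neurons, immediate early genes as a list did not move with Fosl2 and Nr4a2, which were its 2 rises. Of 23 genes, 17 reached 1 FPKM in callosal neurons, and the median step was 0.02. Of the 17, 2 rose and 1 fell, 11.8% and 5.88%, beside 2.12% and 0.514% of all genes. In subcerebral neurons 5 of the 17 fell, beside 0.506% of all genes considered, and the median was -0.48. In corticothalamic neurons 4 fell, beside 0.376%, and the median was -0.30. Ier5, an immediate early gene linked to the heat shock response, was the callosal fall, from 39.6 to 10.4 FPKM. It also fell in subcerebral and corticothalamic neurons, and the steps were -1.83, -1.77 and -1.10. Fos was at 0.94 and 1.73 FPKM and Egr1 at 4.95 and 5.44 in callosal neurons, both named after their values were seen.

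Falls were fewer, and 43 of the 67 (64.2%) passed 2-fold in callosal neurons alone. Another 16 (23.9%) were shared with 1 other subtype and 8 (11.9%) with both. Among the same 13037 genes, 0.506% fell in subcerebral and 0.376% in corticothalamic neurons. Strictly callosal falls, with both other steps above -0.5, numbered 20. Between E15 and P1 in callosal neurons, 47 of the 67 were also at least 2-fold lower at P1 and 2 were at least 2-fold higher.

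Nrp1, Flrt3, Islr2 and Fgfr1 were among the callosal falls, whereas most members of the axon guidance and adhesion lists described below did not pass 2-fold. Nrp1 encodes neuropilin 1, the co-receptor for class 3 semaphorins that callosal axons use at the midline. It was at 37.2, 41.5, 12.7 and 11.5 FPKM in callosal neurons from E15 to P1. In subcerebral neurons it was at 10.1, 13.2, 12.4 and 17.2 FPKM and in corticothalamic neurons at 3.56, 8.63, 7.51 and 16.4. The callosal level of Nrp1 was the highest of the 3 at E15, E16 and E18 and the lowest at P1, with steps of -1.63, -0.08 and -0.18. Flrt3, a leucine-rich repeat protein that binds Robo and Unc5 receptors, went from 40.0 to 15.6 FPKM in callosal neurons (step -1.30). It did not exceed 7.27 FPKM in any group of the others, where the steps were 0.48 and -0.36. Islr2, also called Linx, an axon guidance protein, went from 38.9 to 13.7 FPKM (step -1.44), far below its subcerebral levels of 472 and 366. Fgfr1, a fibroblast growth factor receptor, went from 25.9 to 8.82 FPKM, with steps of -1.46, -1.41 and -0.98.

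Fezf2 and Crim1 fell as well. Fezf2, the transcription factor that specifies subcerebral neurons, was at 65.9, 28.1, 9.85 and 11.4 FPKM in callosal neurons (step -1.42). In subcerebral neurons it was at 187 FPKM at E16 and 152 at E18, and in corticothalamic neurons at 118 and 82.2, with steps of -0.29 and -0.51. Crim1, a transmembrane protein of corticospinal neurons, went from 13.4 to 5.60 FPKM in callosal neurons (step -1.13). Of 18 members of the list of subcerebral genes at 1 FPKM, 3 fell, namely Fezf2, Crim1 and Islr2, and 2 rose. The falls were 16.7%, beside 0.514% of all genes, and the rises 11.1%, beside 2.12%. With a constant of 5 in place of 1, 2 falls and 1 rise were left. The median step was -0.10, and 12 of the 18 lay below 0. The rises were Cntn6, a contactin of the immunoglobulin family, from 0.64 to 9.82 FPKM (step 2.72), and S100a10, a partner of annexin A2, from 6.37 to 14.5. Cntn6 remained far below its subcerebral levels of 26.1 and 58.2 FPKM.

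Dpy19l1, a multi-pass membrane protein linked to neuronal migration, had 1 of the largest falls. It was at 169, 65.4, 13.9 and 9.19 FPKM in callosal neurons and at 184, 22.5, 17.4 and 26.2 in subcerebral neurons. The steps were -2.15 in callosal, -0.35 in subcerebral and -0.70 in corticothalamic neurons. The subcerebral level was already low at E16, so that the decline from E15 to P1 occurred at different stages in these columns. Dpy19l1 thus counts as a callosal fall between E16 and E18 and was lower at P1 than at E15 in all 3 subtypes. Falls shared by all subtypes included Cwc22, a spliceosome factor, from 133 to 49.4 FPKM in callosal neurons, with steps of -1.41, -1.58 and -1.53. Rspo3, a secreted enhancer of Wnt signalling, went from 9.19 to 3.02 FPKM and Gpc4, a glypican, from 14.8 to 6.48. BC002163 was high at E16 only, at 0.24, 7.60, 0.71 and 0.69 FPKM in callosal neurons, and was likewise highest at E16 in the other subtypes. Its steps were -2.33, -2.41 and -2.58.

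The callosal and upper-layer list, with 29 genes all at 1 FPKM or more, split. Plxnd1, Hspb3, Lpl, Rorb and Cpne4, a calcium-dependent membrane-binding copine, rose, and Nrp1 fell. With a constant of 5, 3 rises and the fall were left. The median step was -0.10 and 17 of 29 members lay below 0. The list thus held 17.2% of members past 2-fold upward beside the 2.12% of all genes, and its median lay slightly below that of all genes. In subcerebral and corticothalamic neurons the medians were -0.01 and 0.02. Of 13 corticothalamic and subplate genes at 1 FPKM, Nr4a2 and Lmo3 rose in callosal neurons (15.4%, beside 2.12% of all genes) and none fell.

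Receptors at inhibitory synapses had the highest list median in callosal neurons among the lists with 10 or more members at 1 FPKM. Of 18 such genes for GABA receptors, glycine receptors and chloride transport, 3 rose (2 with a constant of 5), none fell, and 16 had a step above 0. The 3 rises were 16.7% of the list, beside 2.12% of all genes. The median was 0.62 in callosal, 0.32 in subcerebral and 0.20 in corticothalamic neurons. Slc12a5 encodes KCC2, the chloride extruder whose appearance lowers intracellular chloride in maturing neurons. It was at 2.90, 2.26, 9.57 and 17.6 FPKM in callosal neurons and 3.38, 7.97, 18.5 and 30.8 in subcerebral neurons. Corticothalamic neurons had 5.09, 7.51, 19.4 and 33.2 FPKM. Slc12a5 rose in every subtype with steps of 1.70, 1.12 and 1.26, and its callosal level was the lowest of the 3 at all 4 stages. Slc12a2, the chloride importer NKCC1, was at 16.1 and 11.1 FPKM in callosal neurons, a step of -0.50. Gabra5 and Gabra3, which encode receptor alpha subunits, rose from 5.65 to 17.2 and from 4.73 to 14.1 FPKM. The lowest step of the list was that of Gabra2, the alpha 2 subunit, at -0.93 from 32.9 to 16.8 FPKM.

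Glutamate receptor and postsynaptic scaffold genes gave 8 rises and 1 fall among 39 members at 1 FPKM, 20.5% and 2.56%, beside 2.12% and 0.514% of all genes, with a median step of 0.21. With a constant of 5 in place of 1, 2 rises and no fall were left. These members were taken by their callosal levels. In subcerebral neurons 3 of them rose, beside 2.18% of the same 13037 genes, and in corticothalamic neurons 3 rose, beside 1.08%. Among the callosal rises 4 were metabotropic receptors, Grm3, Grm5, Grm7 and Grm8. Grm5, a postsynaptic group I receptor, went from 4.01 to 19.5 FPKM (step 2.03), against 19.8 to 37.2 in subcerebral and 18.4 to 17.96 in corticothalamic neurons. Grm7, a presynaptic receptor, went from 2.49 to 12.05 FPKM (step 1.90), and Grm8, of the same group, from 0.42 to 3.24. Dlgap1, a scaffold that binds PSD-95, went from 6.40 to 17.5 FPKM with steps of 1.32, 1.04 and -0.20. The fall was Nptx1, a neuronal pentraxin, from 3.39 to 0.99 FPKM. Core scaffold and NMDA receptor genes, chosen after their values were seen, moved less, with Dlg4 at 80.4 and 69.1 FPKM and Grin2b at 5.55 and 5.65.

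Ion channel genes were read on 2 lists. Of 26 genes on the list of sodium, calcium and other cation channels at 1 FPKM, 3 rose (1 with a constant of 5), none fell and 21 had a step above 0. Cacna1g, a T-type calcium channel, went from 15.98 to 60.7 FPKM in callosal neurons (step 1.86). Cacna1i, another T-type channel, went from 3.41 to 8.66 FPKM with steps of 1.13, -0.07 and 0.18. Of 42 potassium channel genes, 5 rose and 2 fell, with Kcnh1 the largest rise, and none of these 7 passed with a constant of 5. Rises were 11.9% of this list and 11.5% of the cation channel list, beside 2.12% of all genes. Falls were 4.76% of the potassium channel list, beside 0.514%. Kcnj4, an inward rectifier, rose in all subtypes, with steps of 1.62, 1.43 and 1.38, and Kcnk9, a leak channel, in callosal and corticothalamic neurons, with steps of 1.40, -0.02 and 2.04. The falls were Kcnj11, an ATP-sensitive channel subunit, from 20.5 to 8.75 FPKM, and Kcnn2, a calcium-activated channel, from 23.2 to 10.3.

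Presynaptic genes moved mostly by small amounts. Among 41 vesicle and release genes 33 had a step above 0 and the median was 0.23. The only rise was Sv2b, a synaptic vesicle glycoprotein, from 2.42 to 9.06 FPKM. It made up 2.44% of the list, near the 2.12% of all genes. Stx1a, a release SNARE, lay just under the limit at 43.8 and 88.5 FPKM. Of 20 cadherins and non-clustered protocadherins 4 rose, beside 2.12% of all genes, and none fell. All 4 are low in FPKM, and none passed 2-fold with a constant of 5 in place of 1. Pcdh20 went from 1.93 to 8.37 FPKM in callosal neurons and did not exceed 1.06 in the others, with steps of 1.67, 0.27 and -0.36. The other rises were Pcdh15, Cdh20 and Pcdh19, with callosal steps of 1.63, 1.45 and 1.26. Of 18 ephrins and Eph receptors 2 rose, 11.1% beside 2.12% of all genes, neither of them past 2-fold with a constant of 5. Efna5, a membrane-anchored ligand, went from 1.43 to 7.24 FPKM (step 1.76), and Epha8, a receptor, from 3.14 to 7.35. Among 24 semaphorins, plexins and neuropilins the rise was Plxnd1 and the fall Nrp1, each 4.17% of the list, beside 2.12% and 0.514% of all genes. None of the 14 netrin and slit pathway genes passed 2-fold, and Dcc, the netrin receptor with the lowest step of that list, went from 14.7 to 8.76 FPKM (step -0.69).

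Late transcription factors gave 4 rises among 29 members at 1 FPKM, of which 1 was left with a constant of 5. The 4 rises, 13.8% beside 2.12% of all genes, were Lmo3, Klf9, Rorb and Satb1. Klf9, a thyroid hormone-responsive factor, went from 0.97 to 5.44 FPKM, with steps of 1.71, 0.43 and 1.21. Satb1, a chromatin organizer, went from 16.4 to 34.6 FPKM. Of 31 growth factor pathway genes at 1 FPKM, 3 rose and 1, Fgfr1, fell, with a median of -0.15. These were 9.68% and 3.23%, beside 2.12% and 0.514% of all genes. Igfbp5, an insulin-like growth factor binding protein, rose in callosal and subcerebral neurons, with steps of 2.06, 2.39 and 0.32. Ntrk2, the BDNF receptor TrkB, went from 18.5 to 40.1 FPKM in callosal neurons (step 1.07), and Smad3, a TGF-beta effector, had a callosal step of 1.09. Ptk2b, the calcium-responsive kinase Pyk2, went from 1.03 to 11.4 FPKM in callosal neurons and had steps of 2.62, 1.74 and 0.71.

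Lists of basic cell functions moved little in callosal neurons. Of 77 cytosolic ribosomal protein genes none passed, 73 had a step below 0, and the median was -0.16, beside -0.15 and -0.16 in the other subtypes. Of 76 nuclear respiratory chain genes none passed, and the callosal median was 0.01 beside 0.21 and 0.20. Of 23 cholesterol synthesis genes none passed, 20 had a step above 0, and the median was 0.21. Of 21 glycolytic genes, Pfkp, the platelet isoform of phosphofructokinase, went from 17.1 to 44.3 FPKM (step 1.33), and none fell. This rise was 4.76% of the list, beside 2.12% of all genes. The 37 tubulin, microtubule-associated and growth-cone genes at 1 FPKM had no gene past 2-fold and a median of 0.12. Of 15 heat shock genes, 30 chromatin and DNA methylation genes and 27 splicing regulators none passed. Of 21 Wnt pathway genes Fzd2, a frizzled receptor, fell from 3.21 to 0.93 FPKM, 4.76% beside 0.514% of all genes. Flrt3 fell among 31 synaptic adhesion and organizer genes (3.23%). Of 32 genes of migration and early differentiation Nrp1 fell (3.1%), and 21 had a step below 0.

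**Figure D3:**
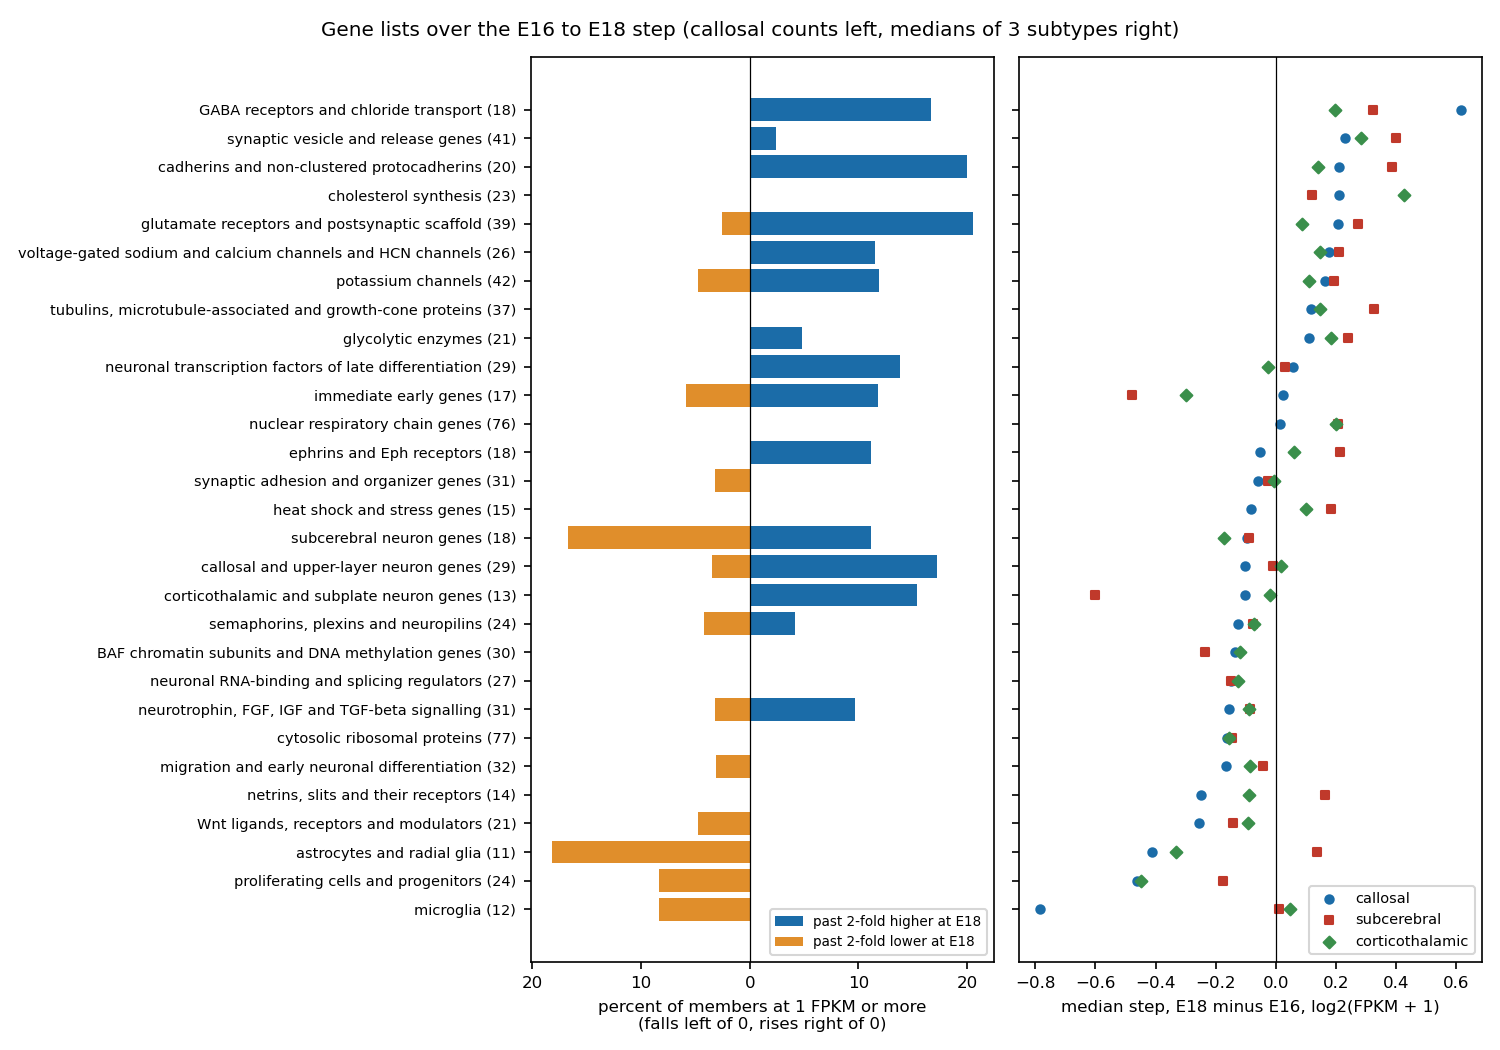
The 29 gene lists with 10 or more members at 1 FPKM, ordered by callosal median, with the number of such members in brackets. Left, the percent of members past 2-fold in callosal neurons, rises to the right of 0 and falls to the left. Right, median step in log2(FPKM + 1) in each subtype, over the members that reached 1 FPKM in a callosal column. The GABA and chloride list has the highest callosal median, 0.62, and the microglia list the lowest, -0.78.

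Markers of other cells moved with the callosal step. All 12 microglial markers at 1 FPKM in a callosal column had a callosal step below 0, and the median was -0.78. Over the same 12 the medians were 0.01 and 0.05 in the other subtypes. Members near 0 FPKM in those subtypes have steps near 0 on this scale whatever their change, so these medians do not serve as a contrast. Tyrobp, a microglial signalling adaptor, was the member past 2-fold (8.33%, beside 0.514% of all genes), at 0.64, 4.68, 1.76 and 1.80 FPKM in callosal neurons. It was at no more than 0.11 FPKM in any group of the other subtypes. The 13 microglial markers summed to 9.82, 60.3, 35.6 and 39.4 FPKM in callosal neurons from E15 to P1, so the E16 group stood highest. Subcerebral sums ran from 9.51 to 34.1 FPKM and corticothalamic sums from 11.5 to 21.8. None of these markers was listed at 0 in the callosal E16 or E18 column. The part of these cells in other callosal changes was not tested.

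Of 24 proliferation and progenitor genes at 1 FPKM, 22 had a callosal step below 0 and the median was -0.46, beside -0.18 and -0.45. Those past 2-fold, neither of them with a constant of 5, were Eomes, the Tbr2 factor of intermediate progenitors, from 3.43 to 0.50 FPKM, and Neurog2, a proneural factor, from 6.43 to 2.44. Eomes and Neurog2 also fell in corticothalamic neurons, with steps of -1.46 and -1.06. The callosal falls were 8.33% of the list, beside 0.514% of all genes. The list summed to 198, 150, 108 and 114 FPKM in callosal neurons. Of 11 astrocyte and radial glia genes at 1 FPKM, 8 had a callosal step below 0. The median was -0.41, beside 0.14 in subcerebral and -0.33 in corticothalamic neurons. The members past 2-fold were Ptprz1 and Slc1a3, 18.2% beside 0.514% of all genes. Ptprz1, a receptor phosphatase of radial glia, went from 156 to 57.6 FPKM and Slc1a3, the glutamate transporter GLAST, from 12.9 to 4.23. The glial sum was 285 FPKM at E16 and 183 at E18 in callosal neurons. That difference in the sum lay in Ptprz1 and Slc1a3, since the other 16 glial markers summed to 116 and 121 FPKM. A sum follows its highest members and does not give the direction of the others. These falls stand beside those of Nrp1, Fezf2 and Fgfr1, and the part of progenitors and glia in the latter was not tested.

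Marker sums of vascular cells, the oligodendrocyte lineage and interneurons were higher at E18 than at E16 in callosal neurons, with no member past 2-fold. They were 15.5 and 24.5, 17.6 and 24.7, and 125 and 236 FPKM in that order. The interneuron sum was mostly Npy, the neuropeptide Y gene, at 119 and 233 FPKM, and corticothalamic neurons had 238 and 517. Of 4 Cajal-Retzius markers at 1 FPKM, A930038C07Rik rose (25%, beside 2.12% of all genes), from 0.47 to 2.23 FPKM. Only 5 of 18 vascular, 5 of 12 oligodendrocyte and 2 of 14 interneuron markers reached 1 FPKM in a callosal column. The part of these cells in the callosal rises was not tested.

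**Figure D4:**
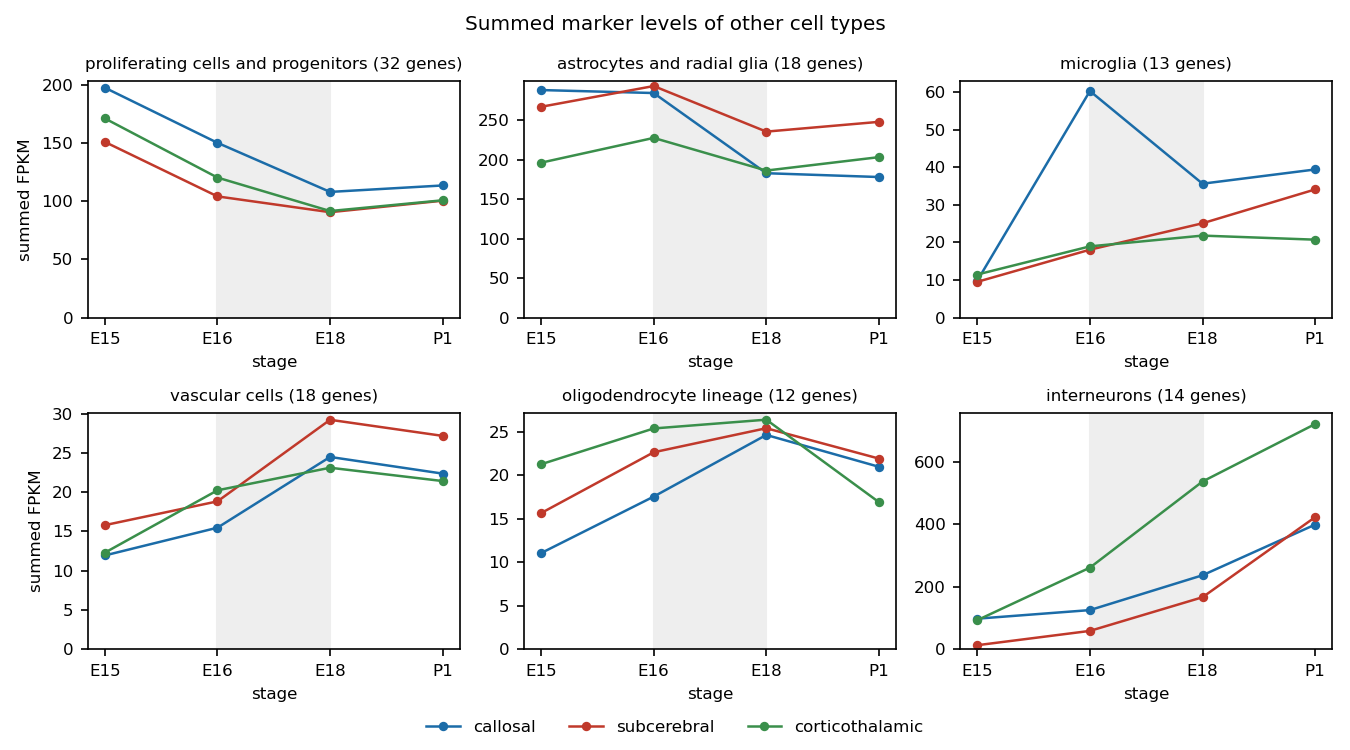
Summed FPKM (y axis) of marker genes of 6 other cell types at the 4 stages (x axis) in callosal (blue), subcerebral (red) and corticothalamic (green) neurons, each point 1 pooled sum, with the E16 to E18 step in grey. The callosal microglial sum is highest at E16, at 60.3, and the callosal progenitor and glial sums are lower at E18 than at E16, the glial one through Ptprz1 and Slc1a3.

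The limit of 2-fold divides genes of nearly equal steps. Rprm, a cell cycle arrest gene, was just inside with 40.9 and 83.0 FPKM, and Stx1a just outside. Among falls, Odz2, a teneurin, was just inside with 62.3 and 30.6 FPKM, and Id2, an inhibitor of basic helix-loop-helix factors, just outside with 350 and 175. With a constant of 5, Sv2b, Crim1, S100a10, Ntrk2, Smad3, Slc1a3, Tyrobp and Fzd2 also no longer passed. Nor did A930038C07Rik, Rspo3, Gpc4, Lor, Kit, Rprm and Odz2. Short RNAs and unnamed loci need separate reading. Of the 344 changed genes, 16 rises and 5 falls were loci known by an assembly identifier, and 10 rises and 6 falls were listed at 0 in 1 callosal column, for which no fold is given. Snora64, a small nucleolar RNA that poly(A) selection is not meant to capture, went from 218 to 50.1 FPKM in callosal neurons and was at 203 and 210 in subcerebral neurons. Mir708, a microRNA gene, was listed at 0 at E16 and at 85.7 FPKM at E18.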

How the data were processed

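RNA-seq values of the 3 subtypes at 4 stages were taken from the authors' deposited table of 1 FPKM column per group. The mouse build mm9, the aligner TopHat2 and Cufflinks are named, per the submitters' processing notes. Their versions, the annotation, strand use and the combination of libraries are not given in the sources used. From these values log2(FPKM + 1) steps were computed (Python 3.11.15, pandas 2.3.3, numpy 2.4.6, figures with matplotlib 3.10.9) for genes at 1 FPKM or more at callosal E16 or E18, with a limit of 2-fold. No test was possible with 1 value a side. The calculation was tested on simulated data. Of 945 genes in 34 lists, 940 were found, 9 of them by older symbols in the RefSeq table of GRCm38.p6. Overlapping genes and close paralogs may share reads in these values. The genes named were the largest rises and falls, those with the largest gap to the other subtypes, the largest shared changes, up to 4 members of each list, the ends of list ranges, genes beside the limit and cell markers. Members, lists and rules were chosen with earlier results of these data known.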

Additional observations from a re-analysis of the deposited data

Results flagged for a closer look

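In 8 genes the callosal step passed 2-fold in 1 direction while another subtype passed it in the other direction, in log2(FPKM + 1), E18 minus E16. With 1 pooled value per group, these differences were not tested. The callosal steps of Plxnd1, Fosl2, Lpl and Nr4a2 were 2.22, 1.76, 1.36 and 1.28. Plxnd1 had a corticothalamic step of -1.20 and Lpl a subcerebral step of -1.32. Fosl2 had steps of -2.14 in subcerebral and -2.04 in corticothalamic neurons, and Nr4a2 steps of -2.16 and -1.19. The other 4 are short RNAs or unnamed transcripts with a value listed at 0 in at least 1 column, so their sizes on this scale are not folds. Snora65 had a callosal step of 4.52 and a subcerebral step of -1.28, and Snora41 a callosal step of -5.50 and a corticothalamic step of 5.71. AK178082 had a callosal step of 3.31 and a corticothalamic step of -1.82, and AK216819 a callosal step of -2.74 and a subcerebral step of 2.79.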

How the results depend on the processing

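No paired analysis was possible because the table has 1 pooled column per group, and for the same reason no library could be left out. The counts of genes past 2-fold depended on the constant added before the logarithm and on the fold. With 0.1 in place of 1 there were 536 rises and 166 falls. Of the rises, 137 were shared by all subtypes and 203 were in callosal neurons alone. Of the falls, 25 were shared by all, 95 were in callosal neurons alone and 58 had both other steps above -0.5. The number of lists with 2 or more falls went from 4 to 8. With 5 there were 77 rises and 17 falls, of which 8 and 3 were shared by all and 43 and 11 were in callosal neurons alone. Both other steps were below 0.5 for 20 rises and above -0.5 for 7 falls. With this constant, 5 and 1 lists had 2 or more rises or falls. The strict limit on the other subtypes, 0.5 at 2-fold, was set in proportion to the log2 fold. It was therefore lower at 1.5-fold and higher at 3-fold. At 1.5-fold there were 830 rises (237 shared by all, 277 callosal alone, 112 strictly callosal) and 291 falls (48, 160 and 83), with 19 and 16 lists. At 3-fold there were 65 rises (5, 37 and 19) and 16 falls (2, 9 and 8), with 5 and 0 lists. A minimum of 5 FPKM left 28 falls in callosal neurons alone and no member in the Cajal-Retzius and red blood cell lists. Without a minimum, the median steps of the interneuron and Cajal-Retzius lists turned to -0.11 and -0.01. Median-ratio scaling gave 277 rises and 67 falls, and quantile normalization 254 and 83, of which 247 and 67 were among the original genes. Alternatives added after the data were seen gave 272 and 62 without short RNAs and 266 and 61 without genes listed at 0 in any of the 6 columns. Rises made up 74.0% to 81.9% of changed genes over these settings. Of the 112 genes named by rule, 94 were past 2-fold, and 45 of these 94 dropped below the limit with a constant of 5.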
